A study of Mus musculus with 4 samples.

Results

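The 10 genes described here encode proteins of the matrix and cell surface of neural tissue: the chondroitin sulfate proteoglycans Vcan, Bcan and Ncan, the receptor-type proteoglycan Ptprz1, the matrix glycoproteins Tnc and Sparc, and the glypicans Gpc1, Gpc2, Gpc4 and Gpc6. They were taken by symbol from 49997 genes in the count files, and all 10 were found. The genes were chosen with earlier results of these libraries known, so their differences between the groups are given as a description and not as tests. The cells were iMOPs, which are otic progenitors of the mouse made into a self-renewing line, and their genotype was wild type in all samples. The libraries labelled neuron came from cells kept in Neurobasal medium with the supplement N21 and 1 µM K03861, which inhibits the kinase CDK2. Their medium also held L-glutamine at 2 mM. Those labelled proliferating came from cells in DMEM/F12 with N21 and the growth factor bFGF at 20 ng/ml. The antibiotic carbenicillin was present there at 25 µg/ml. Each group had 2 libraries, numbered 1 and 2 in the labels, all of the same line. Whether separate cultures were used is not stated in the labels, so p-values measure only the spread between these samples, which may be technical.

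In developing neural tissue, lecticans such as versican, brevican and neurocan bind hyaluronan through their N-terminal domains and tenascins through their C-terminal lectin domains, and so join the matrix into a network. Their chondroitin sulfate chains are known to limit axon growth, and Ptprz1 binds the growth factors pleiotrophin and midkine on neural progenitors. Glypicans are held on the cell surface by a lipid anchor, and their heparan sulfate chains bind FGF, Wnt and hedgehog ligands.

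With 7 rRNA-like genes left out, 3241915 and 617872 counts remained in neuron 1 and 2, and 292302 and 614465 in proliferating 1 and 2. Libraries that shared a number were more alike than libraries that shared a group. Across the 9009 tested genes, which are not independent replicates, log2 CPM (read counts scaled to a common library total) correlated at r = 0.78 between the libraries numbered 1 and 0.82 between those numbered 2, against 0.50 within the neuron group and 0.40 within the proliferating group. Markers of dividing cells went against the labels: the 6 fixed markers summed to 1686 and 4270 scaled CPM in the neuron libraries, against 192 and 550 in the proliferating libraries. The 8 neuronal markers summed to 1465 and 1519 in the neuron libraries, against 2492 and 2821 in the proliferating ones. The 9 otic progenitor markers summed to 2205 and 2011 in the neuron libraries, against 3120 and 8526 in the proliferating libraries. Vim made up most of each sum, at 1305 and 1248 in neuron, against 2059 and 6934 in proliferating libraries. The markers did not move together: of the 5 tested, 2 had the same direction in both numbers. Sox2, Jag1, Eya1, Nes and Vim were present in all 4 libraries, while Pax8 was at 0 in all 4 and Pax2 in 3 of them. Fibroblast, endothelial and immune markers summed to at most 16.6 scaled CPM in any library. The groups are named by their labels throughout. Whether the labels were exchanged was not tested, and an exchange would turn round the direction of every neuron over proliferating value given here.

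All 10 genes passed the filter on low counts, which asked for 16.2 CPM in at least 2 libraries. In 6 of them every library reached that level. Bcan missed it in neuron 2 and Gpc6 in proliferating 1, while Gpc1 and Gpc2 reached it only in the libraries numbered 1. On a scale per length (TPM, counts divided by gene length and scaled to a common total, without the rRNA-like genes), Sparc was the most abundant of the 10, at 280 ± 91.1 TPM (SD over the 4 libraries). Ncan came next at 260 ± 132 TPM. These levels did not differ beyond their spread. Both stood among the 3 highest of the 10 genes in each library. Bcan averaged 136 ± 176 TPM, Ptprz1 84.0 ± 15.8, Vcan 66.8 ± 26.0 and Tnc 66.6 ± 60.6 TPM. Neighbours in that order were separated by less than their spread. The glypicans were lower per length on average. Their levels were 31.6 ± 36.1 TPM for Gpc1, 17.6 ± 15.6 for Gpc2, 9.27 ± 4.43 for Gpc4 and 4.42 ± 4.20 for Gpc6. Within single libraries this order did not always hold. Gpc1 reached 73.9 TPM in neuron 1, above Ptprz1 at 70.8. In neuron 2 Gpc4 and Gpc6 had 13.2 and 8.93 TPM, above Tnc at 6.06. Gpc6 was counted over 31860 bases, the longest of the 10, so its TPM is low for its counts. The spread was narrowest, relative to the level, for Ptprz1 and widest for Bcan and Gpc1.

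Scaled CPM are CPM of the tested genes after scaling by trimmed means (TMM). In the neuron libraries Tnc, Ncan and Sparc were below both proliferating libraries, and Gpc4 and Gpc6 were above both. The groups of the other 5 genes overlapped. Among all tested genes the groups did not overlap in 17.9%, with neuron libraries lower in 8.50% and higher in 9.41%. A quasi-likelihood test in edgeR that modelled the group only called 0 of the 10 genes and 0 of all 9009 (0.00% called), with 97 genes at an unadjusted p under 0.05. DESeq2, fitted to 23761 genes without the filter on low counts, also called 0, with 190 at an unadjusted p under 0.05.

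**Figure D1:**
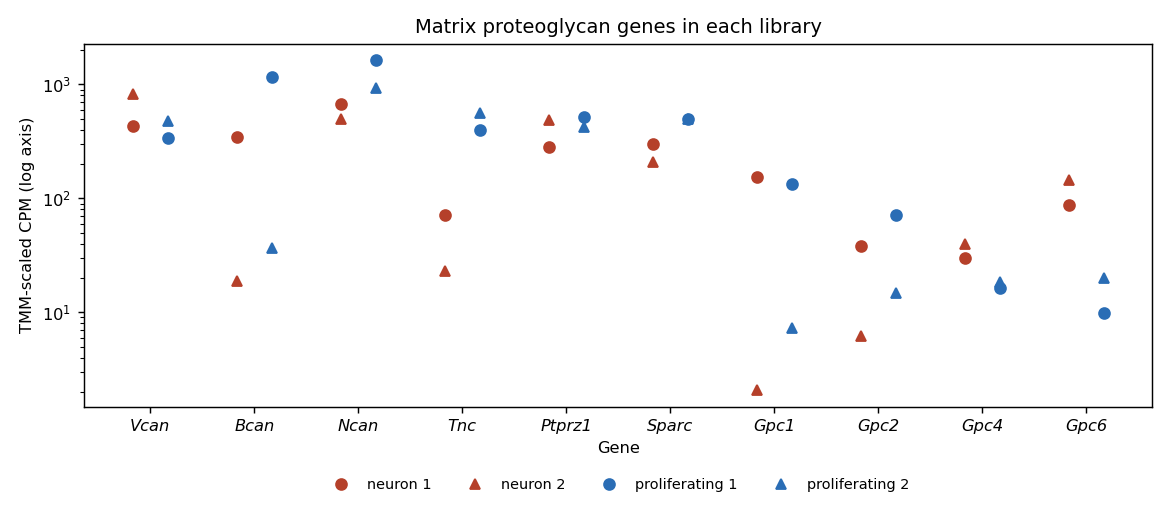
TMM-scaled CPM on a log axis for each of the 10 genes, with 1 point per library: neuron libraries in red, left, and proliferating libraries in blue, right; circles are libraries numbered 1 and triangles those numbered 2. The red points of Tnc, Ncan and Sparc lie below the blue ones, those of Gpc4 and Gpc6 above them, and the triangles of Bcan, Gpc1 and Gpc2 lie far below the circles of the same colour.

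Tnc encodes tenascin-C, a hexameric glycoprotein of progenitor and glial matrix (chromosome 4, 63959785 to 64047015 in mm10, minus strand). It had 266 and 11 counts in the neuron libraries and 121 and 306 counts in the proliferating libraries. These are 70.8 and 22.8 scaled CPM in the neuron libraries, against 394 and 561 in the proliferating libraries. Both neuron libraries were thus far below both proliferating libraries. The fitted log2 fold change of Tnc between the groups, as neuron over proliferating, came to -3.32 (SE 1.12, 2 libraries a group). Within number 1 the neuron level was 0.180 times the proliferating level (95% exact counting interval 0.145 to 0.225). Within number 2 it was 0.0406 times (0.0201 to 0.0737). The intervals do not overlap, so the size of the difference varied between numbers by more than counting error. All counting intervals here cover counting error only, since reads are not independent molecules. The antisense transcript 8030451A03Rik overlaps Tnc and had 14 and 0 counts in the neuron libraries and 6 and 25 in the proliferating ones. Whether strand was used in counting is not given in the sources used here, and such reads could have been counted for either gene.

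Ncan encodes neurocan, a lectican made largely by neurons and their progenitors (chromosome 8, 70093085 to 70120873). It had 2535 and 239 counts in the neuron libraries and 498 and 504 in the proliferating libraries. In scaled CPM these are 675 and 495 for neuron, against 1620 and 924 for proliferating. The neuron level was 0.416 times the proliferating level within number 1 (0.378 to 0.459) and 0.536 times within number 2 (0.458 to 0.626). Its direction was the same in both numbers, and its log2 fold change was -1.12 (SE 1.11). Sparc encodes a collagen-binding glycoprotein that modulates cell contact with matrix (chromosome 11, 55394500 to 55423183). It had 299 and 209 scaled CPM in the neuron libraries, against 498 and 499 in the proliferating libraries. The ratio was 0.601 within number 1 (0.508 to 0.717) and 0.420 within number 2 (0.331 to 0.529), and the log2 fold change was -0.97 (SE 1.01). The proliferating libraries were close to each other for Sparc, and both neuron libraries were below them.

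The promoters of these 3 genes are shown because the genes were lower together in both neuron libraries; each window runs from 250 bases before to 50 bases after the RefSeq start (GRCm38.p6), 5′ to 3′ on the gene's strand. Capitals mark matches, on either strand, to any of 4 motifs. The AP-1 motif was searched as TGANTCA. The letters of the SOX motif were ACAAAG. A GC box was read as GGGCGG. The TATA motif was taken to be TATAAA.
Tnc, chr4:64046966-64047265, minus strand: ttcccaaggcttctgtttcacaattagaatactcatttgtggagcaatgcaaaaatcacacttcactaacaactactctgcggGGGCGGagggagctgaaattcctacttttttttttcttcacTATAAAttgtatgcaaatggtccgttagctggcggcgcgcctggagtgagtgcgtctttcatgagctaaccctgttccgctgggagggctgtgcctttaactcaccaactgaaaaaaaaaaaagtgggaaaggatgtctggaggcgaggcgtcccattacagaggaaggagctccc
Ncan, chr8:70120795-70121094, minus strand: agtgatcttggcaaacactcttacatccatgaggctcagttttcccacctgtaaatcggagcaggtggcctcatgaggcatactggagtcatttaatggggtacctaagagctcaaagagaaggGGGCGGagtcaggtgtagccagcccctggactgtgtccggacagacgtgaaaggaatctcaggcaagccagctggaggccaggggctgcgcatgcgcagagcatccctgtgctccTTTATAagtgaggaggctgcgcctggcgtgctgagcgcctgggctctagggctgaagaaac
Sparc, chr11:55420031-55420330, minus strand: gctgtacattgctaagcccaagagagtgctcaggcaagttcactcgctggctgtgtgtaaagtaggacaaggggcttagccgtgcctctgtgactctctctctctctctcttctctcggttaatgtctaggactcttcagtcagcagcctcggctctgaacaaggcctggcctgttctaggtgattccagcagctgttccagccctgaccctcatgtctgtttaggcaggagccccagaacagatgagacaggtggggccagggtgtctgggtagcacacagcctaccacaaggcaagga
Tnc and Ncan each held a GC box and a TATA match in this window, and Sparc held none of the 4 motifs. RefSeq gives Tnc another start, whose window overlaps the printed one. Of 32817 promoter windows of the same length, 35.6% held a GC box, 13.6% a TATA match, 18.7% a SOX match and 7.81% an AP-1 match. A match is a description of the letters and not a binding site.

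Gpc6 and Gpc4 stood on the other side. Gpc6 encodes a glypican of the cell surface (chromosome 14, 116925315 to 117976544, a gene of 1051 kb). It had 331 and 70 counts in the neuron libraries and 3 and 11 in the proliferating libraries. In scaled CPM these are 88.1 and 145 for neuron, against 9.76 and 20.2 for proliferating. Both neuron libraries were above both proliferating libraries. The ratio was 9.02 within number 1 (3.06 to 44.0) and 7.19 within number 2 (3.78 to 15.1), and the log2 fold change was 2.92 (SE 1.09). Proliferating 1 held only 3 counts of Gpc6, which leaves the first ratio wide. Gpc4, a glypican of progenitors and astrocytes (chromosome X, 52053021 to 52165252), had 112 and 19 counts in the neuron libraries and 5 and 10 in the proliferating libraries. That gave 29.8 and 39.4 scaled CPM in neuron, against 16.3 and 18.3 in proliferating libraries. The groups did not overlap, but the counting interval of the ratio included 1 in each number, at 0.762 to 5.75 in number 1 and 0.950 to 5.17 in number 2. Its log2 fold change was 0.98 (SE 1.20).

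Vcan and Ptprz1 differed less. Vcan, which encodes versican, a large lectican of embryonic matrix (chromosome 13, 89655312 to 89742509), had 1615 and 394 counts in the neuron libraries and 105 and 261 in the proliferating ones. The scaled CPM were 430 and 817 in neuron, against 342 and 479 in proliferating libraries, so neuron 1 lay between the proliferating libraries. Within each number the neuron library was higher, by a ratio of 1.26 in number 1 (1.03 to 1.55) and 1.71 in number 2 (1.46 to 2.00). On CPM without TMM scaling the groups of Vcan did not overlap, at 498 and 638 CPM in neuron libraries against 359 and 425 CPM in proliferating libraries. Gm4117, an antisense gene that overlaps Vcan, had 31 and 12 counts in neuron and 5 and 5 counts in proliferating libraries. Ptprz1, a receptor tyrosine phosphatase that carries chondroitin sulfate (chromosome 6, 22875502 to 23052916), had 283 and 491 scaled CPM in neuron, against 521 and 418 in proliferating libraries. Its ratio was 0.543 in number 1 (0.460 to 0.646) and 1.17 in number 2 (0.975 to 1.42). The direction of Ptprz1 was thus not shared by the numbers.

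Bcan, Gpc1 and Gpc2 differed more between numbers than between groups. Bcan encodes brevican, a lectican restricted to the nervous system (chromosome 3, 87987531 to 88000230). It had 1297 and 9 counts in the neuron libraries and 360 and 20 in the proliferating libraries, or 345 and 18.7 scaled CPM in neuron against 1171 and 36.7 in proliferating libraries. The neuron library was lower within number 1, at a ratio of 0.295 (0.262 to 0.332), while in number 2 the interval included 1 (0.509, from 0.204 to 1.17). Gpc1, a glypican that binds FGF2 (chromosome 1, 92831645 to 92860779), had 580 and 1 counts in neuron and 41 and 4 counts in proliferating libraries. Its scaled CPM were 154 and 2.07 in neuron, against 133 and 7.34 in proliferating libraries. Within number 1 its ratio was 1.16 (0.842 to 1.63), and within number 2 its interval, from 1 and 4 counts, ran from 0.00574 to 2.86. The antisense gene Gm29481, which overlaps Gpc1, had 43 and 1 counts in neuron and 7 and 0 counts in proliferating libraries. Gpc2, a glypican of developing neurons (chromosome 5, 138273655 to 138280005), had 142 and 3 counts in neuron and 22 and 8 counts in proliferating libraries. Its scaled CPM were 37.8 and 6.22 in neuron, against 71.6 and 14.7 in proliferating libraries. Its ratio was 0.528 in number 1 (0.335 to 0.869) and 0.424 in number 2 (0.0724 to 1.77).

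The neuron library was lower in both numbers for 5 of the 10 genes (Tnc, Ncan, Sparc, Bcan and Gpc2) and higher in both for 3 (Vcan, Gpc4 and Gpc6). The direction was shared by both numbers in 54.7% of tested genes. With a term for the replicate number in the edgeR model, 2 of the 10 genes were called, Tnc lower (log2 fold change -3.43, SE 0.66) and Gpc6 higher (2.97, SE 0.73), while 0.966% of tested genes were called in that fit. Since the genes were chosen on this contrast, nothing is read from these calls. On log2(RPKM + 0.1), where the median of all genes was 0.81, Ncan and Sparc lay at 0.05 and 0.14 between the groups, and without proliferating 1 Bcan lay at 2.35 and Gpc2 at 0.66. The median log2 fold change of the 10 genes was -0.59 with group alone, against -0.03 for all tested genes. Markers of the oligodendrocyte lineage moved in the same direction as Tnc, Ncan and Sparc. Those 6 markers summed to 149 and 80.8 scaled CPM in the neuron libraries, against 498 and 460 in the proliferating libraries, with Sox10 at 0 in all 4. The 8 markers of astrocytes or radial glia summed to 770 and 1515 in neuron, against 2011 and 1858 in proliferating libraries, but did not move together. Sox9 had 111 and 170 scaled CPM in neuron, against 397 and 347 in proliferating libraries, whereas Aqp4 had 73.7 and 336 in neuron, against 52.1 and 5.50 in proliferating libraries. Of the 6 tested markers of that list, 3 had the same sign in both numbers. The part of such cells in these differences was not tested, and in bulk RNA fewer cells of a type and less RNA per cell cannot be told apart.

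**Figure D2:**
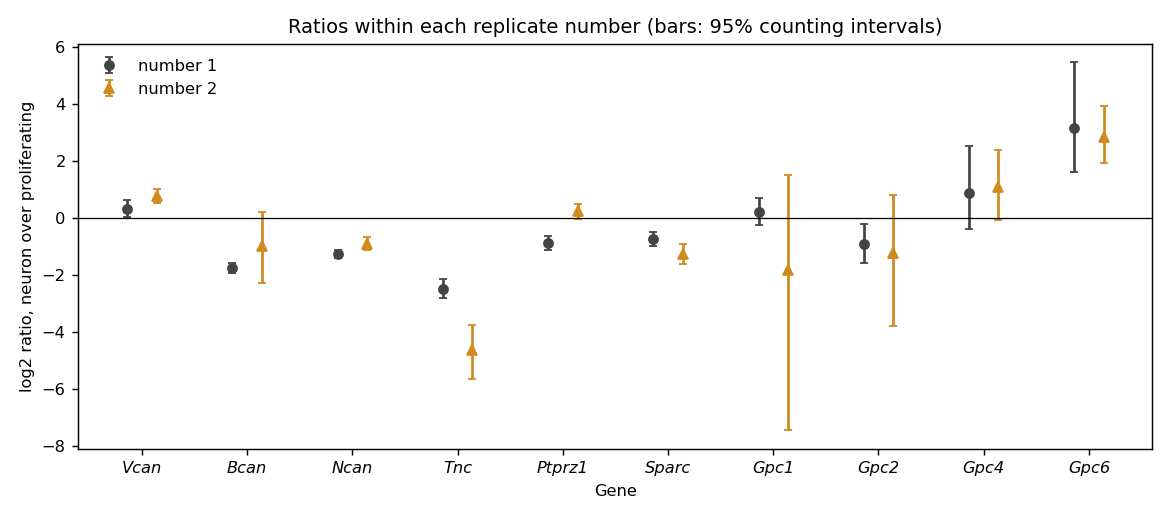
Log2 ratio, neuron over proliferating, for the 10 genes within the libraries numbered 1 (circles) and those numbered 2 (triangles), with 95% exact counting intervals as bars. Tnc, Ncan, Sparc, Bcan and Gpc2 lie below 0 in both numbers, and Vcan, Gpc4 and Gpc6 above 0. Of these genes, Gpc4 in both numbers and Bcan and Gpc2 in number 2 have intervals that include 0. Ptprz1 and Gpc1 change side, and the interval of Gpc1 in number 2, with 1 and 4 counts, spans from far below to above 0.

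The libraries numbered 2 were next set against those numbered 1, a contrast that the choice of genes did not use; the labels give no meaning to the number. Here edgeR's quasi-likelihood test called 24.8% of 9009 genes, with 646 higher (7.17%) and 1587 lower (17.6%) in number 2. Of the 10 genes, 3 were called lower (Gpc1, Bcan and Gpc2) and 0 higher. The libraries of number 2 lay below both of number 1 for these 3 genes and above both for Vcan, while among all tested genes number 2 lay below in 35.1% and above in 31.2%, together 66.3%. The log2 fold change, number 2 over number 1, was -4.88 for Gpc1 (SE 0.85, adjusted p = 0.00203), -4.76 for Bcan (SE 0.84, adjusted p = 0.00203) and -2.31 for Gpc2 (SE 0.80, adjusted p = 0.0423), each gene lower in both libraries numbered 2 than in both numbered 1 (2 libraries per number). Since Gpc1 and Gpc2 passed the filter only through number 1, their calls there are not independent of it. Without the filter Gpc1 and Bcan were still called, and Gpc2 was not (adjusted p = 0.0755 in edgeR). The other 7 had log2 fold changes from -0.69 for Ncan to 0.75 for Vcan and were not called. The count of all called genes was 517 without proliferating 1 and 844 without neuron 1, and Gpc2 was not called without proliferating 1, neuron 1 or neuron 2 (adjusted p = 0.385, 0.0859 and 0.134 in edgeR). Without proliferating 2 Tnc was called, at -3.27 (adjusted p = 0.00815 in edgeR). With library totals alone the split of calls over all genes was 224 higher and 2018 lower, and on log2(RPKM + 0.1) with limma it was 23 higher and 3016 lower.

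The 3 genes called lower were among the members richest in G and C. GC content of GENCODE transcripts was 60.5% for Bcan, 57.7% for Gpc1, 55.5% for Gpc2 and 55.1% for Ncan, and from 53.5% down to 40.0% for the other 6, with Ptprz1 the lowest. Across tested genes the fold change between numbers had a Spearman correlation of -0.77 with GC content. Genes are not independent replicates and share the same 4 libraries here. Of 1926 tested genes with a GC content of 55% or more, 58.8% were called lower in number 2, against 0.168% of the 1791 genes below 45%. After a correction for GC content in each library, 248 genes were called, and 0 of the 10. The log2 fold change was then -2.65 for Gpc1 (adjusted p = 0.0663 in edgeR), -1.87 for Bcan (adjusted p = 0.122 in edgeR) and -0.62 for Gpc2 (adjusted p = 0.696 in edgeR).

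**Figure D3:**
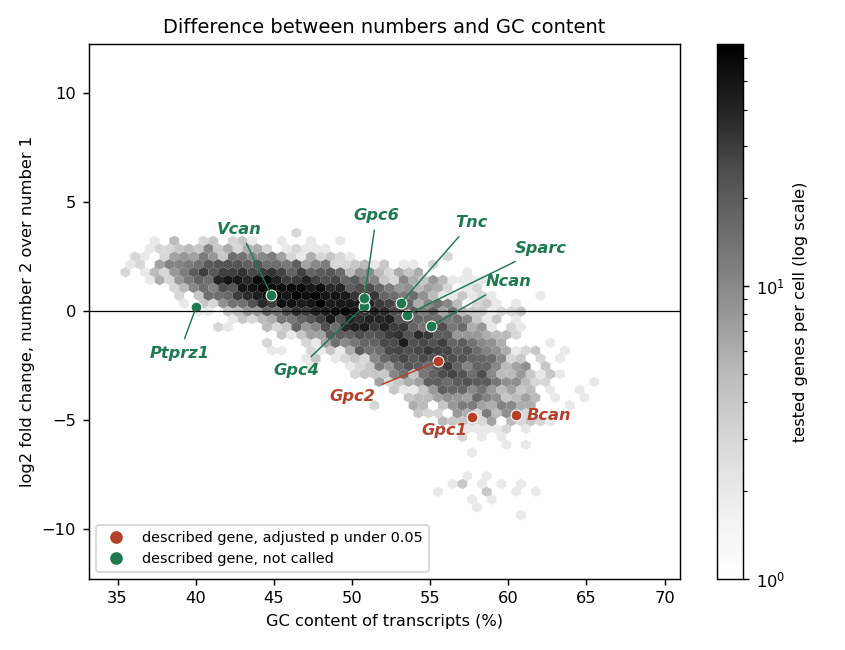
Log2 fold change, number 2 over number 1, against GC content of transcripts in percent; grey cells count tested genes on a log scale and the 10 genes are drawn as points, red where called. The cloud slopes down with GC content, and Bcan, Gpc1 and Gpc2 lie in its lower right part.

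Promoters of 2 of these 3 genes were in the RefSeq table and are shown because both genes were lower in the libraries numbered 2; windows, strand and capitals are as above.
Bcan, chr3:88000307-88000606, minus strand: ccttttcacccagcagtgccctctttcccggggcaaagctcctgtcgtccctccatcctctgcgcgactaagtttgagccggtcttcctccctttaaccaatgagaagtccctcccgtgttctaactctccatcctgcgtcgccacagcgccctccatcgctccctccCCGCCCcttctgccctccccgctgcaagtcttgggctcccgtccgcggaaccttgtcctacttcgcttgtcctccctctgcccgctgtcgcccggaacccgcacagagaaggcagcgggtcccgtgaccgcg
Gpc2, chr5:138279888-138280187, minus strand: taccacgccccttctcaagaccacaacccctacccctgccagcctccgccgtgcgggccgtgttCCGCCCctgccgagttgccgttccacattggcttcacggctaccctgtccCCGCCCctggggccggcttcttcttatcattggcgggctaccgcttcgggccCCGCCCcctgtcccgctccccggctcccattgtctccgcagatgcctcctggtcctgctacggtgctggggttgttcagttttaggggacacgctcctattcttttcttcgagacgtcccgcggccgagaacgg
The window of Bcan held 24 CpG dinucleotides and 1 GC box, and that of Gpc2 held 26 CpG and 3 GC boxes. The median over all windows was 7 CpG. Neither held a TATA, SOX or AP-1 match. Promoter windows of Ptprz1 and Gpc4, which were not called between numbers, were as rich in G and C, at 71.7% and 66.7%, against 64.0% for Bcan and 65.7% for Gpc2.

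Around these genes, 8 lists of the same matrix pathway were read in the 2 fits. With group alone edgeR and DESeq2 each called 0 of the 69 tested list genes. In edgeR 3 of them were at an unadjusted p under 0.05, as were 97 of all 9009 tested genes. With a term for the replicate number, 0.644% of all tested genes were called higher and 0.322% lower in the neuron libraries, and 3 of the 69 tested list genes were called. Adamts20 and Adamts4, among 11 tested matrix proteases and inhibitors, reached the CPM level of the filter only in the group where each was high. A difference was thus built into their selection, and their calls are not used. Adamts20, a secreted protease that cleaves versican, had 155 and 25 counts in the neuron libraries and 0 and 1 counts in the proliferating libraries. The ratio within number 2 was 28.3 (exact counting interval 4.63 to 1160). Adamts4, which cleaves aggrecan, brevican and versican, had 34 and 1 counts in neuron and 18 and 20 counts in proliferating libraries, or 9.05 and 2.07 scaled CPM in neuron, against 58.6 and 36.7 in proliferating libraries. The 7 tested genes of fibrous matrix and basement membrane had 1 call. Fn1, which encodes fibronectin, rose by 2.38 (SE 0.65, adjusted p = 0.0410 in edgeR), with 713 and 201 scaled CPM in neuron, against 61.8 and 82.5 in proliferating libraries. With DESeq2 size factors in that fit, Fn1 was not called (adjusted p = 0.115 in edgeR), nor without the filter on low counts (adjusted p = 0.103 in edgeR).

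In the other 6 lists edgeR called 0 of 51 tested genes between the groups in that fit, and DESeq2 called 0 with group alone. In edgeR with the replicate term, 10 of the 51 were at an unadjusted p under 0.05, as were 894 of all 9009 tested genes. The lists were chosen with earlier results of these data known, so nothing is read from that count. The median log2 fold changes with the replicate term were -0.67 over 4 hyaluronan matrix genes, -0.20 over 6 other heparan sulfate carriers, -0.47 over 12 genes of heparan sulfate synthesis, -0.56 over 10 of linker and chondroitin sulfate synthesis, -0.14 over 5 small leucine-rich and SPARC-family genes and -0.32 over 14 ligands and receptors, beside -0.03 over all tested genes. Ptn, which encodes pleiotrophin, a ligand of Ptprz1, had 200 and 454 scaled CPM in neuron, against 791 and 1473 in proliferating libraries, and its log2 fold change was -1.84 (SE 0.60, adjusted p = 0.122 in edgeR). With the GC correction, an alternative chosen after seeing the data, Ptn was called at -2.43 (adjusted p = 0.0105 in edgeR). Of the genes of these 6 lists, only Ptn was followed through the alternatives between groups, so nothing is read from that call. Sparcl1, a relative of Sparc, had 313 and 576 scaled CPM in neuron, against 420 and 453 in proliferating libraries, and so overlapped. Smoc1 had 185 and 135 in neuron, against 660 and 161 in proliferating libraries. The hyaluronan receptor Cd44 had 104 and 228 in neuron, against 130 and 488 in proliferating libraries, and the hyaluronidase-related Cemip2 102 and 39.4 in neuron, against 94.3 and 106. Chsy1, a chondroitin synthase, had 87.0 and 116 in neuron, against 101 and 385 in proliferating libraries, and the sulfotransferase Chst11 53.8 and 60.1 in neuron, against 22.8 and 150. The syndecan Sdc4 had 44.4 and 53.9 in neuron, against 32.5 and 235 in proliferating libraries, and Hs2st1, a heparan sulfate sulfotransferase, 169 and 415 in neuron, against 179 and 248.

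**Figure D4:**
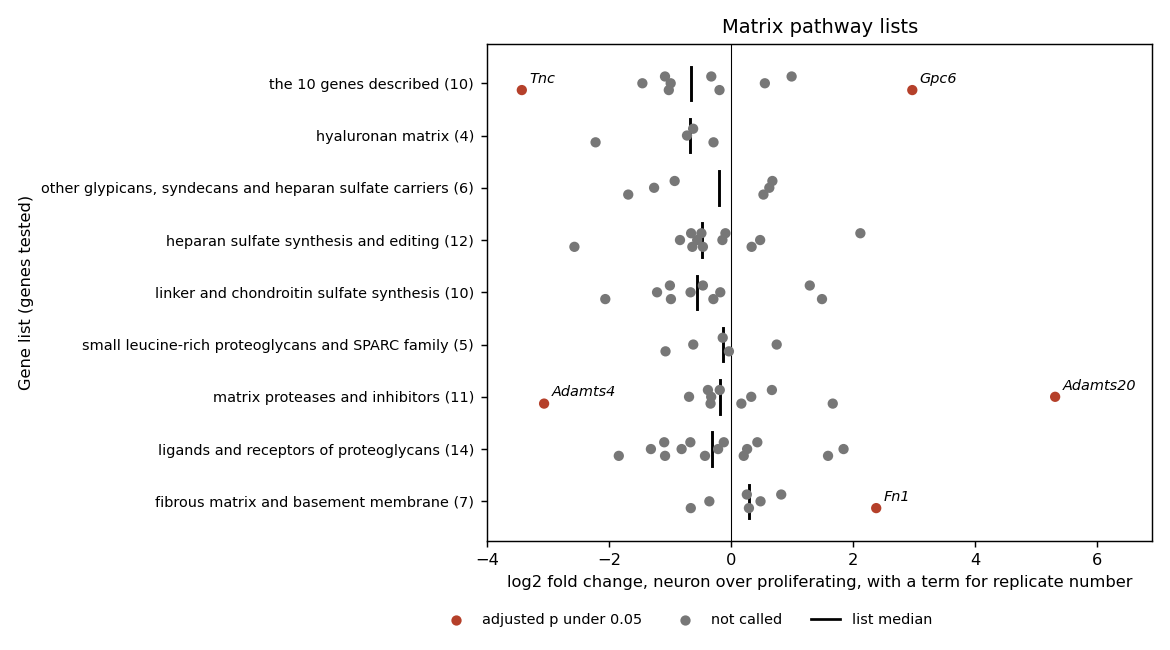
Log2 fold change, neuron over proliferating, in the edgeR fit with a term for the replicate number, for each tested gene of the 10 and of the 8 lists, with list medians as black bars and called genes in red. Apart from Tnc and Gpc6, the called genes are Adamts20, Adamts4 and Fn1, and the medians lie between -0.67 and 0.29.

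Between numbers, 18 of the 69 tested list genes were called lower in number 2 and 1 higher, against 17.6% and 7.17% of all genes. Of these 18, 10 reached the CPM level of the filter only in number 1, so nothing is read from that count. Agrn, which encodes the heparan sulfate proteoglycan agrin, had 442 and 35.2 scaled CPM in neuron, against 1588 and 49.5 in proliferating libraries, and fell by 4.57 in number 2 (SE 0.83, adjusted p = 0.00213 in edgeR). Ptprs, a receptor for chondroitin and heparan sulfate, fell by 3.50 (SE 0.79, adjusted p = 0.00517 in edgeR) and Ndst1, an enzyme of heparan sulfate sulfation, by 2.14 (SE 0.65, adjusted p = 0.0237 in edgeR). Their transcripts had GC contents of 56.8%, 61.1% and 56.2%, and none of the 3 was called after the GC correction (adjusted p = 0.0589, 0.678 and 0.875 in edgeR). Ptprs and Ndst1 were not called without proliferating 1 (adjusted p = 0.102 and 0.261 in edgeR). Without neuron 1 or neuron 2 Ndst1 was not called either (adjusted p = 0.0751 and 0.0997 in edgeR).

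Of the genes whose mean log2 CPM reached 5, those whose pattern over the 4 libraries was most like that of Ncan, the most abundant member by log2 CPM, were Fam193a, Fam222b and Fryl. Their centred log2 CPM differed from that of Ncan by a root mean square of 0.0636, 0.0887 and 0.0893 over 4 libraries, among 5501 genes compared. With 4 libraries many genes can come this close.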

How the data were processed

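RNA of 4 bulk libraries was rRNA-depleted and made into stranded libraries, per the labels' protocols. The build mm10 and the tools featureCounts, HISAT2, SAMtools and DESeq2 are named in the submitters' processing notes, with no versions, and the strand setting is not given in the sources used here. The authors deposited raw counts per gene, which the tests used, and RPKM values. The RPKM were used in alternatives on the log2 scale and to recover gene lengths. Counts of 7 ribosomal RNA and rRNA-like genes, 88.2% to 98.1% of each library, were set aside. Total counts were 27424909 and 8368169 in neuron and 3150354 and 32913243 in proliferating libraries, and 3 counts correspond to 0.925 to 10.3 CPM.

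Genes were filtered with filterByExpr, scaled by TMM and tested with edgeR 4.0.16 (R 4.3.3) by quasi-likelihood, with Benjamini-Hochberg adjustment over all 9009 genes and a threshold of 0.05. DESeq2 1.42.0, limma 3.58.1, other scalings, filters, omitted libraries, the replicate number and GC content of GENCODE M21 transcripts were alternatives. Ratios within a number carry 95% exact binomial counting intervals. TPM used the counted gene lengths, recovered from count, RPKM and the library total with rRNA-like genes included. The 10 genes and all lists were chosen with earlier results of these data known. The 10 genes are all named. Of each pathway list, up to 3 called genes of the majority direction and 1 of the other in the fit with the replicate number were named by fold change (mean log2 CPM of at least 1), and otherwise the 2 most abundant. Promoter sequences are from RefSeq (GRCm38.p6), which held 8 of the 10 genes.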

Additional observations from a re-analysis of the deposited data

How the results depend on the processing

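With 2 libraries per group and 292302 to 3241915 counts after rRNA-like genes were set aside, low genes such as Gpc1, Gpc2 and Gpc4 rest on few counts. Between the groups, edgeR called 0 genes in every setting with group alone, including each omitted library (range 0 to 0); DESeq2 and limma also called 0. The labels do not say that the numbers pair the samples, and only 2 pairs exist; same-numbered libraries deviated together (r = 0.74). With the replicate block 87 genes were called (58 higher, 29 lower), with DESeq2 size factors added 32, with a GC correction added 67 and with no low-count filter 43. Tnc was called in all 4 of these settings, and Gpc6 not with size factors or without the filter (adjusted p = 0.0509 and 0.0535 in edgeR). Both genes were chosen on this contrast, so nothing is read from these calls. Without proliferating 1 the log2 fold change of Bcan between groups was 2.35. The sign of the log2 fold change of Tnc, Vcan, Gpc4 and Gpc6 between groups was the same in every alternative. The lowest values were 0.053 for Vcan, 0.41 for Gpc4 and 0.37 for Gpc6. The median of all genes moved as well, to 0.81 on log2(RPKM + 0.1) and 0.47 without the filter and with group alone. A positive sign thus does not by itself place a gene above the others.

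Between numbers, the count of 2233 ranged from 517 to 2934 with 1 library omitted (517 without proliferating 1, 844 without neuron 1) and was 248 with the GC correction. Gpc2 was not called with rRNA-like genes kept, without the filter, with DESeq2 or with voom. Directions of genes that were not called changed as follows, in log2 fold change. Library totals alone gave -0.24 for Ptprz1 and -0.25 for Gpc4. Voom gave -0.49 and group as a second factor -0.44 for Tnc. On log2(RPKM + 0.1), whose median over all genes was -1.43, against 0.13 with TMM, Tnc was at -2.16, Vcan -1.10, Ptprz1 -1.57, Gpc4 -0.999 and Gpc6 -0.32. On log2(RPKM + 1), Tnc was at -1.22, Vcan -0.65, Ptprz1 -1.09, Gpc4 -0.28 and Gpc6 -0.077. With the GC correction Vcan was at -0.29, Ncan 0.88, Ptprz1 -1.55 and Sparc 0.81. With 1 library omitted, Tnc ranged from -3.27 to 2.01, Ncan from -1.29 to 0.038, Ptprz1 from -0.30 to 0.65, Sparc from -0.89 to 0.40, Gpc4 from -0.37 to 0.71 and Gpc6 from -1.38 to 2.94. The RPKM were scaled to library totals that still held the rRNA-like genes, 88.2% to 98.1% of each library, unlike the TMM-scaled counts. The cause of the changes in direction was not tested. GC corrections used transcripts, an alternative chosen after seeing the data, since genome sequence was not used here. Omitting a library within the replicate block leaves no residual degrees of freedom and was not run.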
